A study of Rattus norvegicus with 2 samples.

Results

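Of 44 named microRNAs (miRNAs) of the imprinted Dlk1-Dio3 region, 42 were found by name among the 350 rat miRNAs of a 1-colour array, and their levels were set side by side in RNA from injured and uninjured rat carotid artery. The names miR-380* and miR-411* had no row. The control RNA came from carotid artery that was not injured, and the other RNA from carotid artery taken 10 days after balloon injury, a model in which a catheter is inflated inside the vessel and removes its inner lining. The labels give the animals as Sprague-Dawley rats, male, of 250 g, and no source used here says how many rats gave each RNA sample. There was 1 array per group, which leaves no replicate error, so no test was possible and no p-value is given.

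The Dlk1-Dio3 region is a stretch of chromosome in which genes are expressed from 1 parental copy only. The maternal copy gives the noncoding RNAs, among them Meg3 and a dense set of miRNA genes, and the paternal copy gives the proteins Dlk1, Rtl1 and Dio3. The miRNAs fall into a group around Rtl1, whose members run antisense to that gene and can direct cleavage of its RNA, and a long downstream group from miR-379 to miR-410. The region's miRNAs are best known from brain, placenta and developing muscle, and inhibition of miR-329, miR-487b, miR-494 or miR-495 has been reported to favour vessel growth in ischaemic mouse limb.

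In the RefSeq table of rat assembly GRCr8 all 33 hairpins of these 42 miRNAs lay on the plus strand of chromosome 6. The Rtl1 group (miR-337, miR-431, miR-433, miR-127, miR-434, miR-136 and miR-136*) had 6 hairpins within 10.3 kb (chr6:134321142-134331416), and 5 of them lay inside the interval of Rtl1. The group from miR-379 to miR-410 had 25 hairpins within 36.4 kb (chr6:134543445-134579838), with 33 miRNAs on the array. Between the groups was a gap of 212 kb, in which miR-341 and miR-370 lie. The array files name no genome build, so this order describes the assembly and not the probes.

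RefSeq gave a mature sequence for 41 of the 42, of which 9 had the same name. For the other 32 the array carried an older name, and the arm of the hairpin was taken from general knowledge of miRNA naming, not from the array files. miR-136 had no entry for its arm. The sequences that follow are those of miR-379 and miR-411 at the start of the cluster, of miR-494 and miR-341, which had the lowest ratios, of 3 members of the Rtl1 group, and of the miR-376 and miR-300 relatives, which are nearly alike. They are written 5′ to 3′, with the seed (bases 2 to 8, which pairs with target RNAs) in capitals. They were read on the plus strand of GRCr8, miR-379 at chr6:134543460-134543480 and miR-494 at chr6:134550163-134550185.
rno-miR-379: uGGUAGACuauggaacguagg
rno-miR-411: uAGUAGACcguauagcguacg
rno-miR-127: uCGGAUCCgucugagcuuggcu
rno-miR-434: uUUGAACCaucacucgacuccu
rno-miR-136*: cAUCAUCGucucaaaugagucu
rno-miR-341: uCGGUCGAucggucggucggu
rno-miR-494: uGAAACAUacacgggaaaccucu
rno-miR-376a: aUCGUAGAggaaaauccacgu
rno-miR-376b-3p: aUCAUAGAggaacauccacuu
rno-miR-376c: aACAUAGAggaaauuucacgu
rno-miR-300-3p: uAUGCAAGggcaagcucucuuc
rno-miR-381: uAUACAAGggcaagcucu

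No seed was shared: the 41 sequences had 41 distinct seeds. Some members were nevertheless close in sequence. Counted from 1 at the 5′ end, miR-300-3p and miR-381 differed over the 18 bases that RefSeq lists for miR-381 by G4A alone (miR-300-3p first), which lies in the seed. miR-376a and miR-376b-3p differed by G4A, A13C and G20U (miR-376a first). Whether the probes separate such pairs was not tested.

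Signals are intensities on a linear scale in arbitrary units, as deposited, and a miRNA is called measured on an array where its flag was 1. Most of the region's miRNAs were not measured on these arrays. On the uninjured array 15 of the 42 were measured (35.7%, against 47.4% of all 350 miRNAs), and on the injured array 19 (45.2%, against 52.6%). Those 15 were measured on both arrays, 4 only on the injured array (9.52%, against 7.43% of all miRNAs), none only on the uninjured array (against 2.29%), and 23 on neither (54.8%, against 45.1%). In bulk tissue, fewer cells of a type and less RNA per cell cannot be told apart.

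Counted by miRNA, detection differed between the groups. In the Rtl1 group 5 of 7 miRNAs were measured on both arrays (71.4%, against 45.1% of all 350 miRNAs). The other 2, miR-431 and miR-433, were measured on neither. In the group from miR-379 to miR-410, 9 of 33 were measured on both arrays (27.3%), 4 only on the injured array and 20 on neither. Measured on 1 or both arrays were 13 of these 33 miRNAs and 5 of the 7 of the Rtl1 group. By hairpin, on that same criterion, 13 of 25 and 4 of 6 gave at least 1 measured miRNA. On that criterion the groups thus lay closer together by hairpin than by miRNA. miR-341 was measured on both arrays and miR-370 on neither, listed at exactly 1 on each.

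**Figure D1:**
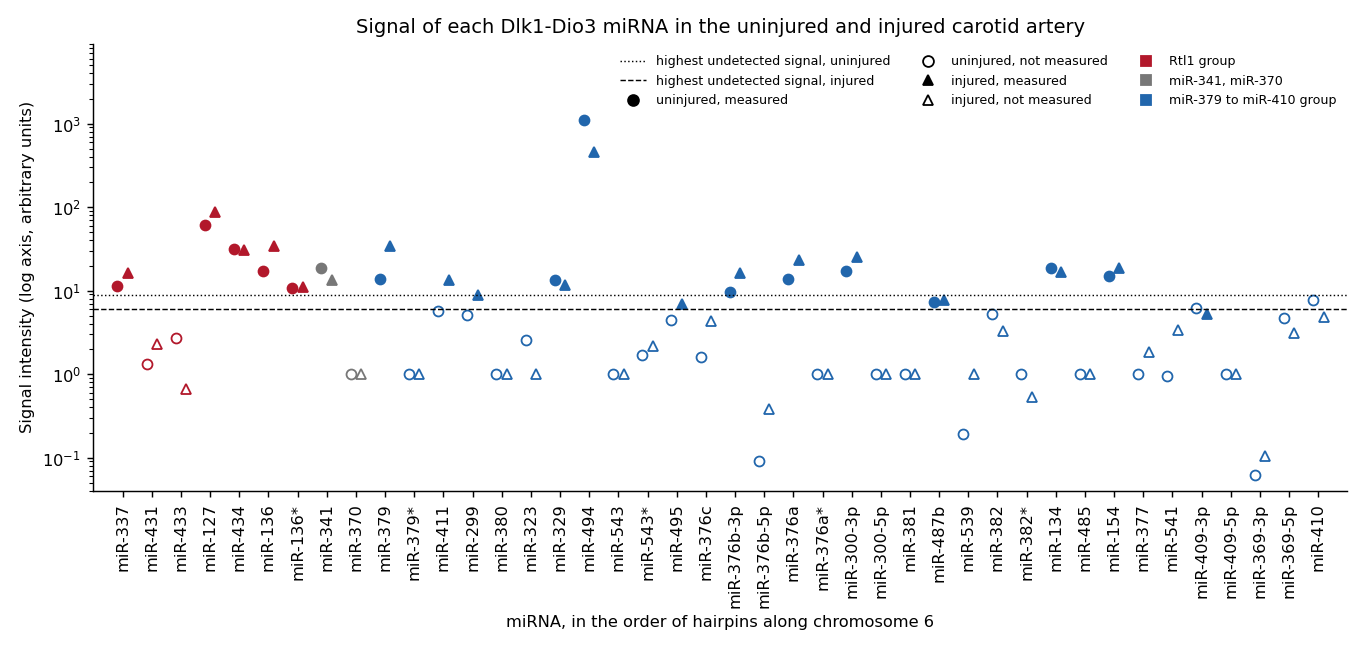
Signal intensity (log axis, arbitrary units) of the 42 Dlk1-Dio3 miRNAs in the order of their hairpins, with circles for the uninjured and triangles for the injured artery, filled where the miRNA was measured. Of the 15 miRNAs filled on both arrays, all but miR-494 lie between 7.35 and 86.6, and the lines mark the highest undetected signals of 8.84 (uninjured) and 5.98 (injured).

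Where both arms of a hairpin were on the array, usually 1 was measured. There were 9 such hairpins: both arms were measured for 1 (miR-136 and miR-136*), 1 arm for 5 and neither for 3. The 5 unmeasured partners were miR-379*, miR-376a*, miR-376b-5p, miR-300-5p and miR-409-5p. Except for miR-376b-5p, with 0.0904 and 0.38, each was listed at exactly 1 on both arrays.

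Signals were low. Apart from miR-494, the miRNAs measured on both arrays had uninjured signals of 7.35 to 61.7 and injured signals of 7.73 to 86.6, and 14 of the 15 lay in the dimmer part of the 158 miRNAs measured on both arrays, below the median of their mean log2 signal. Brightness also depends on the probe, so it is not an order of abundance. Together the 42 miRNAs held 1.5% of the summed miRNA signal of the uninjured artery and 0.903% of that of the injured artery. miR-494 alone gave 77.5% and 52.4% of the region's signal. Without it the region's summed signal was 322 uninjured and 419 injured, a share of 0.338% and 0.43%, so the direction of the region's share is set by miR-494.

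To compare the arteries, log2 signals were scaled by the 75th percentile of the 158 co-measured miRNAs on each array, a step that added 0.09 to every log2 ratio, given as injured minus uninjured. A log2 ratio above 0 was found for 11 of the region's 15 (73.3%, against 65.2% of the 158), and the median of the 15 was 0.43, against 0.14 for the 158. At least 2-fold higher in the injured artery were 2, miR-379 and miR-136, which is 13.3%, against 12.7% of the 158. At least 2-fold lower was 1, miR-494, which is 6.67%, against 3.8%. These shares lay near those of all miRNAs. At 1.5-fold, 6 were higher (40.0%, against 25.3%) and miR-494 alone was lower (6.67%, against 10.1%), but with the control features aligned 1 was higher and 4 were lower, beside 14 and 55 of the 158.

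The scaling decided the sign for many of them. Under 6 other scalings the median of the 158 lay between -0.45 and 0.05, and that of the 15 between -0.17 and 0.34. In 4 of the 6 a single shift moves every ratio alike, so the gap between the medians was bound to stay. With the detected control features aligned, for example, the 15 had -0.17 and the 158 had -0.45. Only quantile normalization and lowess could change the gap, with 0.13 beside -0.03 and 0.2 beside -0.01. Over all 7 scalings 5 miRNAs kept a positive ratio (miR-136, miR-379, miR-376a, miR-376b-3p and miR-300-3p), 4 kept a negative one (miR-341, miR-329, miR-494 and miR-134) and 6 changed sign. The scaling used here gave each of the 15 its highest ratio. With the arrays aligned at their medians, none of the 15 was at least 2-fold higher (against 5.06% of the 158) and miR-494 was the only one at least 2-fold lower (against 10.1%). The counts were also 0 and 1 with the percentile taken over all 350 miRNAs (against 4.43% and 12.7%) and with the control features (against 4.43% and 14.6%). They were 1 and 1 without scaling (against 10.8% and 4.43%), with quantile normalization (against 7.59% and 6.96%) and with lowess (against 9.49% and 5.7%), and the 1 higher was miR-379 each time. The rank of a miRNA among the 158, which no uniform scaling moves, split them in a like way: 9 of the 15 gained places in the injured artery and 6 lost places, with a median gain of 4 places.

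**Figure D2:**
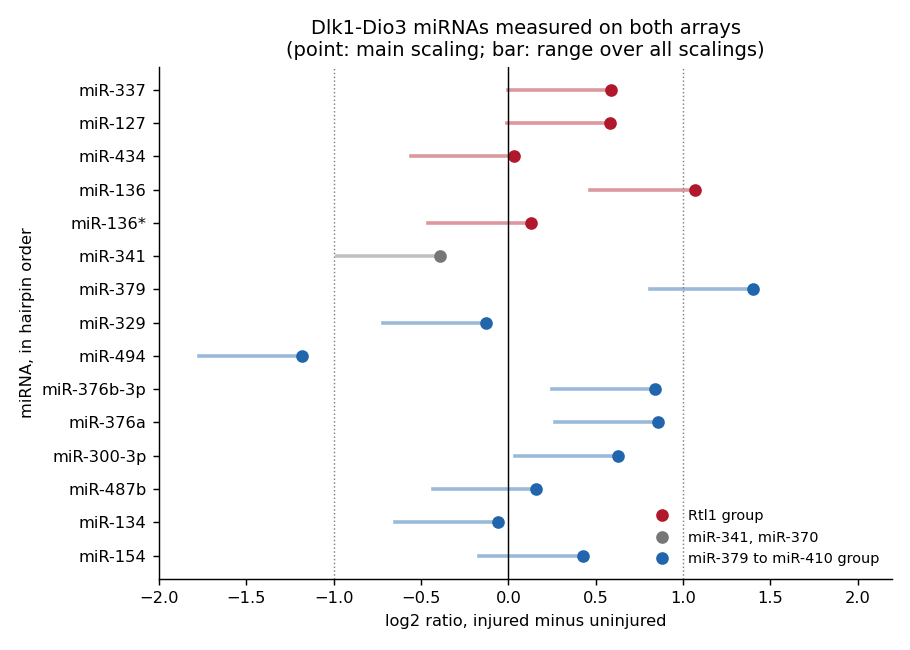
Log2 ratio (injured minus uninjured) of the 15 Dlk1-Dio3 miRNAs measured on both arrays, in hairpin order, with points for the scaling used here, bars for the range over all 7 scalings and dotted lines at 2-fold. miR-379 (0.81 to 1.4) and miR-136 (0.47 to 1.07) stay right of 0 and miR-494 (-1.77 to -1.18) stays left of -1, while bars such as that of miR-434 (-0.56 to 0.03) cross 0.

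In the Rtl1 group miR-136 had the largest ratio and the other measured members lay closer to 0. rno-miR-136 had a signal of 17.2 in the uninjured and 33.9 in the injured artery, a 2.09-fold higher level after scaling, and it moved from place 127 to place 106. The ratio was under 2-fold in each of the 6 other scalings, the lowest being 0.47. Its partner arm miR-136* had signals of 10.9 and 11.2 and a log2 ratio of 0.13, which ranged down to -0.46. The arms of this 1 hairpin thus gave different ratios on these arrays, and no replicate shows the error of either.

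miR-127, the miRNA most often studied for its action on Rtl1, was the brightest of the group, with signals of 61.7 and 86.6. Its log2 ratio was 0.58, and -0.01 with the control features aligned. miR-337, whose hairpin lies outside the interval of Rtl1, had signals of 11.5 and 16.3 and a log2 ratio of 0.59, with a value of 0 under that same scaling. miR-434 was level with the scaling used here, with signals of 31.7 and 30.4, a log2 ratio of 0.03 and a move from place 107 to 108. Its ratio was negative under the 6 other scalings, the lowest being -0.56. All 5 measured members thus had a positive ratio with the scaling used here, as did 65.2% of the 158 miRNAs measured on both arrays. Their median was 0.58, against 0.14 for the 158, but only miR-136 was positive under every scaling. miR-431, known for a role in muscle regeneration, had undetected signals of 1.31 and 2.27, and miR-433, a miRNA linked to fibrosis, of 2.7 and 0.666.

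miR-341, a GC-rich miRNA known from rodents, lies between the groups. It had signals of 18.9 in the uninjured and 13.6 in the injured artery, with a log2 ratio of -0.39 that ranged to -0.98. It moved from place 123 to place 139, the largest loss of places among the 15.

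In the group from miR-379 to miR-410, miR-379 had the highest ratio. rno-miR-379, the first hairpin of the cluster, had signals of 13.8 and 34.3, a 2.64-fold higher level, and moved from place 134 to 105, the largest gain among the 15. Its ratio was at least 2-fold without scaling, with quantile normalization and with lowess, and between 0.81 and 0.96 in the other 3. The next hairpin, miR-411, had a signal of 13.6 in the injured artery and an undetected 5.75 in the uninjured one. The ratio to this undetected signal was 2.52-fold with the scaling used here, 2.37-fold without scaling and 1.67-fold with the control features aligned. With the highest undetected signal as the floor, miR-411 was at least 1.64-fold, 1.54-fold and 1.09-fold higher, in the same order. The third, miR-299, had 8.94 against an undetected 5.11. That ratio was 1.86-fold with the scaling used here, 1.75-fold without scaling and 1.23-fold with the control features aligned. With the highest undetected signal as the floor, miR-299 had a bound of 1.07-fold with the scaling used here. None above 1 remained with the control features aligned. The next 2 hairpins, miR-380 and miR-323, were measured on neither array, so of these 5 hairpins only miR-379 had a ratio between detected signals.

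miR-376a and miR-376b-3p, of a family whose seed is known to be changed by A-to-I editing in brain, had similar ratios. miR-376a had signals of 13.7 and 23.5 and a log2 ratio of 0.86. miR-376b-3p had signals of 9.72 and 16.4 and a log2 ratio of 0.84, and both stayed positive under all 7 scalings, with lowest values of 0.27 and 0.25. Neither reached 2-fold. The third member on the array, miR-376c, was not detected, with signals of 1.59 and 4.36, although it differs from miR-376a by no more than U2A, G4A, A14U and C16U.

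The neighbouring miR-300-3p had signals of 17.4 and 25.3 and a log2 ratio of 0.63, with a lowest value of 0.04. miR-381, which differs from it by 1 of the 18 listed bases, was listed at exactly 1 on both arrays. A pair this close in sequence thus stood on opposite sides of detection on both arrays.

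miR-494 stood apart from the rest of the cluster. The signal of rno-miR-494 was 1111 in the uninjured artery and 461 in the injured artery, so it was 2.27-fold lower, and it moved from place 22 to place 37. Under the 6 other scalings its log2 ratio lay between -1.77 and -1.27, so it was at least 2-fold lower in each. The members on the array next to it in hairpin order were miR-329 and miR-543, of which miR-543 was measured on neither array. miR-329 had signals of 13.5 and 11.6 and a log2 ratio of -0.13. miR-495 had 6.98 in the injured artery and an undetected 4.4 in the uninjured one. The ratio to this undetected signal was 1.69-fold with the scaling used here and 1.12-fold with the control features aligned. With the highest undetected signal as the floor, miR-495 had no bound above 1. miR-487b had signals of 7.35 and 7.73 and a log2 ratio of 0.16. For miR-487b the uninjured signal was below the highest undetected one, 8.84. Of the 4 miRNAs studied in ischaemic limb, miR-494 and miR-329 thus had negative ratios under every scaling, while miR-487b changed sign and miR-495 was measured only in the injured artery.

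The remaining measured members of the cluster were miR-134, miR-154 and miR-409-3p. miR-134, which limits the size of dendritic spines in neurons, had signals of 18.6 and 16.8 and a log2 ratio of -0.06. miR-154 had signals of 15 and 18.9 and a log2 ratio of 0.43, which was -0.17 with the control features aligned. miR-409-3p was measured only on the injured array, at 5.19, yet its undetected uninjured signal was higher, at 6.26, so no fold is given. That injured signal was also below the highest undetected one, 5.98.

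The 23 miRNAs measured on neither array gave signals of at most 7.67 (miR-410, uninjured), and 9 of them were listed at exactly 1 on both arrays. Beyond miR-381, miR-376c, miR-431, miR-433 and miR-370, they included miR-380, miR-323, miR-543, miR-539, miR-382, miR-485, miR-377, miR-541, miR-369-3p, miR-369-5p, miR-543* and miR-382*. Of 14 further miRNAs of the region that are no members of this set, the array held 6 (miR-493, miR-540, miR-673, miR-758, miR-770 and miR-412), and each was listed at exactly 1 on both arrays.

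**Figure D3:**
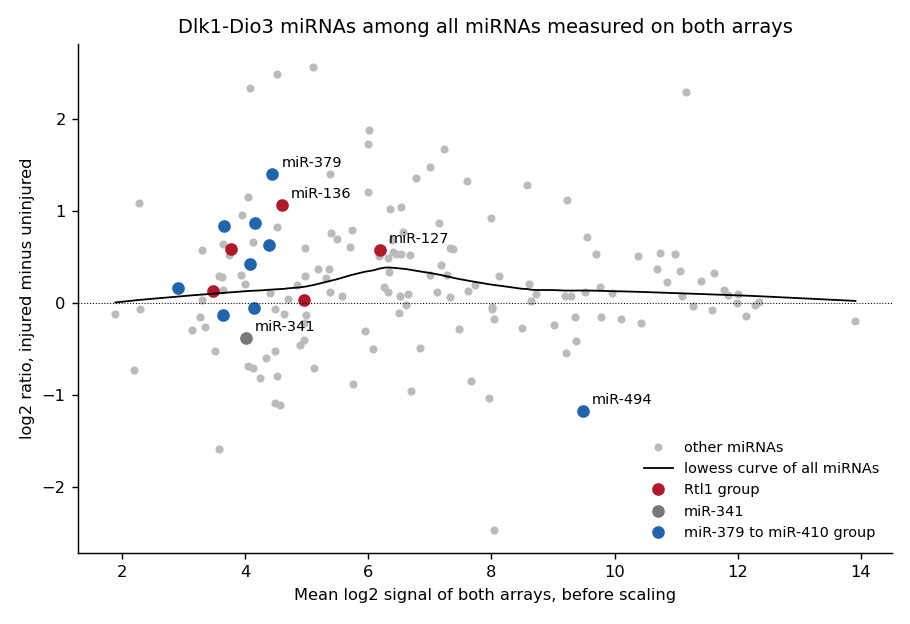
Log2 ratio (injured minus uninjured) against the mean log2 signal of both arrays for the 158 miRNAs measured on both, with grey points for other miRNAs, coloured points for the 15 of the Dlk1-Dio3 region and a black lowess curve through all of them. The region's miRNAs lie at low signal within the spread of the grey points, except for miR-494, which sits at high signal and below the curve with a ratio of -1.18.

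Several lists of cell type markers differed in signal between the same arrays, while the endothelial list was near level. miR-143 and miR-145, defining miRNAs of smooth muscle, were measured on both arrays. Uninjured and injured signals were 17014 and 13992 for miR-143, and 735 and 473 for miR-145. Of a nerve list, chosen because the region's miRNAs are abundant in neurons, 9 of 11 were measured on the uninjured array and 3 of 11 on the injured array. The list's summed signal was 455 and 233, of which miR-338 alone gave 283 and 147. The neuron-specific miR-124 had a signal of 16.2 in the uninjured artery and was listed at 1, undetected, in the injured one. Of the other nerve markers, miR-219-5p went the other way, with an undetected 6.41 and a measured 30.9. miR-128 had signals of 32.9 and 39.8, a log2 ratio of 0.36 with the scaling used here. Aligning the medians shifts every log2 ratio by -0.44, so the direction of miR-128 depends on the scaling. All 5 leukocyte miRNAs on the array were measured on both, with a summed signal of 241 uninjured and 515 injured. The higher sum came from miR-142-3p, miR-142-5p and miR-223. miR-150 went the other way, with signals of 82.4 and 54.7, and miR-342-3p was near level at 27.7 and 29.7. The 2 erythroid miRNAs had summed signals of 677 and 125, and the 2 endothelial ones of 626 and 615. For the 6 striated muscle miRNAs the sums were 432 and 200, of which miR-133b alone gave 365 and 168. Of these 6, 4 were measured on both arrays. miR-206 was undetected on both, with signals of 0.755 and 2.06, and miR-208 was listed at 1 on both. The part of these cell types in the region's values was not tested.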

How the data were processed

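Total RNA of carotid artery, 1 sample per group, was labelled with Cy3 for Agilent miRNA arrays, as the labels' protocols state. Per the file headers, the files deposited by the authors hold a signal, here taken as a linear intensity, and a flag (coded 0 or 1) per feature; no source used here names the scanner software, the background step or any scaling. The flag was read as detection because it was 0 on the negative control features. The value table deposited by the authors holds a ratio per miRNA, which equalled injured over uninjured signal within a relative tolerance of 1e-05 for all 42 members. Names were matched exactly.

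Log2 intensities were scaled as described, with 22 control features left out. For miRNAs measured on a single array, the scaled bright signal was divided by the lowest signal detected on the other (3.43 uninjured, 1.36 injured). If greater, the miRNA's own signal there was used. It was greater for every member measured only on the injured array, so the value is the ratio of its own signals. A bound divides by the highest undetected signal instead. Alternatives were 6 other scalings (lowess span 0.5), a stricter detection rule, a 1.5-fold threshold, averaged arms and ranks. Added after seeing the data were these ratios and bounds under 4 of those scalings. The scalings alone were checked on simulated data, made from the uninjured array with known changes and no noise. Detection, bounds and ranks were not checked in this way. Precision is limited by the number of arrays. The members and lists, and the choice to name every measured member, were made with earlier results of these data known. Work used Python 3.11.15, numpy 2.4.6, pandas 2.3.3 and statsmodels 0.14.6.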

Additional observations from a re-analysis of the deposited data

How the results depend on the processing

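With 1 array per group no setting measures replicate error, and no paired analysis was possible because each group holds 1 array. The 2 miRNAs at least 2-fold higher became 1 without scaling, with quantile normalization and with lowess (miR-379 each time), and 0 when the medians, all miRNAs' 75th percentile or the control features were aligned; at 1.5-fold they were 6. The 1 at least 2-fold lower stayed 1 under every setting run. The median log2 ratio of the 15 miRNAs was -0.02, -0.07 and -0.17 under those same 3 alignments, in that order, 0.13 with quantile normalization and 0.2 with lowess. For the Rtl1 group these medians were 0.13, 0.08, -0.01, 0.13 and 0.2, and for the group from miR-379 to miR-410 -0.02, -0.07, -0.17, 0.19 and 0.3. That last group's median was 0.53 with signals above the highest undetected signal required, and likewise 0.53 without miR-494, a setting chosen after seeing the data. Without scaling, the 3 medians were 0.34, 0.49 and 0.34. The stricter detection rule left 14 of the 15 miRNAs on the uninjured array and 18 of the 19 on the injured array. Low signal limits the comparison: miR-487b and miR-409-3p, each on 1 array, lay under the highest undetected signal. With the highest undetected signal as the floor, miR-495 and miR-409-3p had no bound above 1, and that of miR-411 was 1.64-fold.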

Other observations

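The authors' deposited table, which gives a ratio for every miRNA whether detected or not, listed 6 of the 42 Dlk1-Dio3 miRNAs at a ratio of 2 or more (48 of 349 miRNAs in all, 13.8%). Of these 6, 1 was measured on both arrays (miR-379, 2.48), 1 on the injured array only (miR-411, 2.37) and 4 on neither: miR-539 at 5.22, miR-376b-5p at 4.2, miR-541 at 3.46 and miR-376c at 2.74 in the authors' deposited table. The signals behind the ratio of miR-539 were 0.191 and the listed value of 1, and those behind miR-376b-5p were 0.0904 and 0.38. The largest ratios of the region in that table thus come from miRNAs that the flag calls undetected in both arteries.

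The measured and the unmeasured members were alike in length and base content. The 18 measured ones with a RefSeq sequence had a median GC content of 45.5% (36.4% to 66.7%) and the 23 unmeasured ones 44% (23.8% to 68.2%), with a median length of 22 bases in both.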
